A study of Mus musculus with 9 samples.

Results

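The genes described here encode the cytokine LIF, its relative oncostatin M, both chains of the LIF receptor, parts of the JAK-STAT pathway behind it and a receptor chain for another cytokine, GM-CSF: Lif, Osm, Lifr, Il6st, Jak1, Stat3, Socs3 and Csf2ra. They were found by gene symbol in the platform annotation of a mouse bead array, and all 8 had at least 1 probe. Together they held 14 of the 25697 probes and were 8 of the 16110 named genes. The 8 genes were chosen by a reading of genotype differences already measured on these same arrays, and which differences led to which gene was not recorded. Their differences in all 3 comparisons are therefore a description, with no test and no p-value, and the intervals given beside them are not corrected for that choice.

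The cells were mouse ntESCs, pluripotent lines grown from embryos made by nuclear transfer, on a C57BL/6 background. They carried no functional copy of Terc (Terc-/-), 1 copy (Terc+/-) or both (Terc+/+), with 3 arrays per genotype, labelled as replicates. Terc encodes the RNA template of telomerase. Cultures of every genotype received LIF in KSR/KO-DMEM medium free of serum and grew on mitomycin-C treated embryonic fibroblasts (MEF), which were taken away before RNA extraction. Nothing in the labels says whether replicates came from separate lines or cultures, and p-values measure only the spread between these arrays, which may be technical. No probe was paired with Terc (0 probes), and the genotypes rest on the labels.

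LIF keeps mouse embryonic stem cells pluripotent. It binds the receptor chain LIFR, which pairs with gp130, the product of Il6st, and the pair activates JAK1, which phosphorylates STAT3. STAT3 enters the nucleus and turns on genes of self-renewal together with Socs3, whose protein blocks JAK1 and closes the loop. Oncostatin M also signals through gp130, whereas the alpha chain of the GM-CSF receptor, encoded by Csf2ra, pairs with a different shared chain, the common beta chain.

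Osm and Csf2ra were lower in both mutant genotypes than in Terc+/+, each by about 1 log2 unit, and neither separated Terc-/- from Terc+/-. The receptor and kinase genes of LIF itself, Lifr, Il6st and Jak1, differed by at most 0.42 on the log2 scale in any comparison. Stat3 varied more between the Terc+/+ arrays than between genotypes. Lif read near the median signal of all probes on every array, and Socs3 did not separate any genotypes. As background, the limma test across all 25697 probes, with an adjusted p under 0.05 as the threshold, called 0.0389% (10 probes) in Terc-/- against Terc+/+. In Terc+/- against Terc+/+ 0% of probes were called, as were 0% in the comparison of both mutants. An unadjusted p under 0.05 was reached by 10.3% of all probes, 8.34% and 1.81% in these comparisons.

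**Figure D1:**
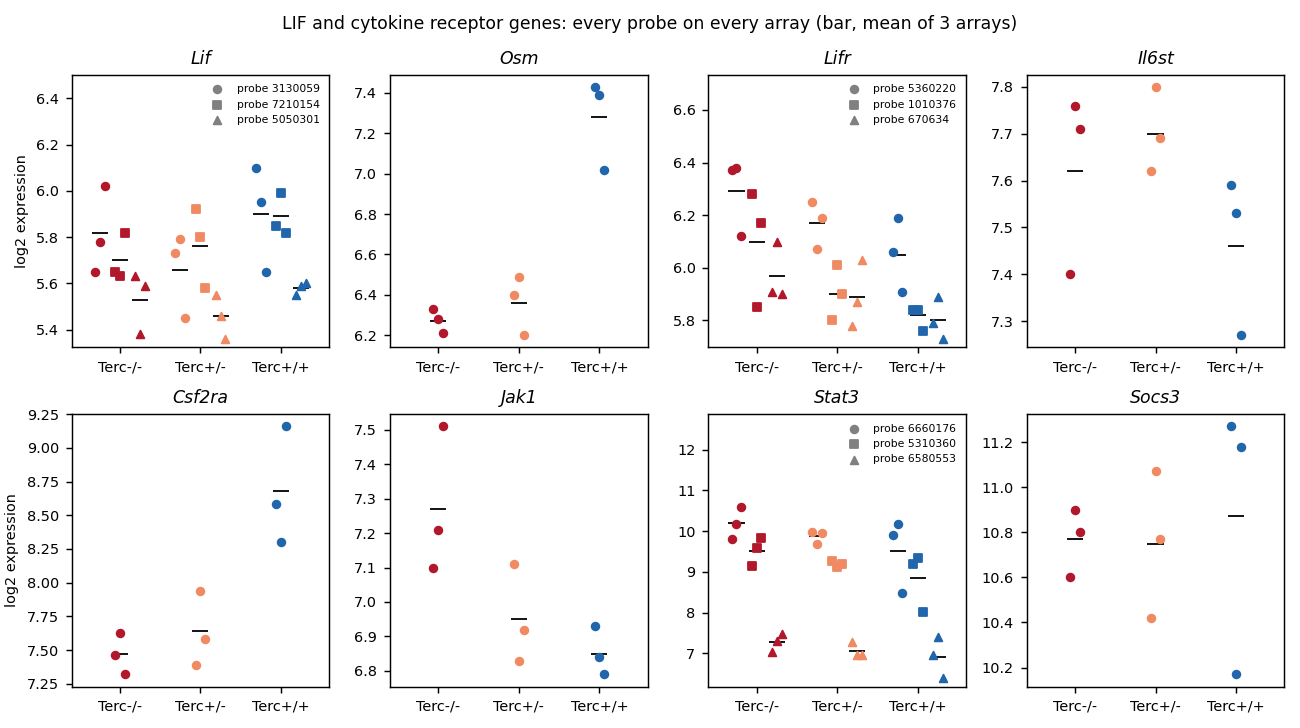
Log2 expression (y axis) of every probe of the 8 genes on each of the 9 arrays, grouped by genotype (x axis). Points are arrays, marker shapes are probes where a gene has several, and bars are means of 3 arrays. The Terc+/+ arrays of Osm (7.02 to 7.43) and Csf2ra (8.30 to 9.16) lie above all arrays of both mutant genotypes.

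The values are log2 values as the authors deposited them, on a common scale between arrays, with a minimum of 5.11 and a median of 5.94 over the table. Between arrays, values over all probes correlated at 0.950 to 0.995, where probes are not independent replicates. All 12 measured embryonic stem cell markers, Pou5f1, Sox2 and Zfp42 among them, lay above the table's median on every array. Depending on the array, 23 to 28 of the 29 measured feeder fibroblast markers also lay above that median. Lying above it therefore does not tell these cell types apart. Of the 12 stem cell markers, 5 had a higher and 7 a lower mean in Terc-/- than in Terc+/+. In Terc+/- against Terc+/+ 6 were higher and 6 lower, and 0 passed the limma test in any comparison. Sall4, Tdgf1 and Dppa4 were higher in both mutants without overlap, and Klf2 was lower in Terc-/-. Over all probes 6.99% were higher and 7.8% lower without overlap in Terc-/-, and 6.81% and 5.43% in Terc+/-. Feeder fibroblast markers varied widely within genotypes: the mean deviation over 29 measured markers, called the feeder score below, was -0.18 to 1.20 in Terc-/-, -0.87 to 0.86 in Terc+/- and -1.33 to 1.01 in Terc+/+. Of these 29 markers, 25 were lowest on Terc+/+ replicate 3 and 17 were highest on Terc-/- replicate 3. By genotype means, 25 were higher and 3 lower in Terc-/- than in Terc+/+, and 29 were higher in Terc-/- than in Terc+/-. In Terc+/- against Terc+/+ 7 were higher and 21 lower, and 0 passed the limma test in any comparison. In RNA from a mixed culture, fewer cells of a type and less RNA per cell cannot be told apart.

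Osm encodes oncostatin M, a cytokine of the LIF family that myeloid cells are known to make, and its neighbouring protein-coding genes are Castor1 and Lif. Its single probe read 6.33, 6.28 and 6.21 in Terc-/- replicates 1, 2 and 3, 6.40, 6.49 and 6.20 in Terc+/- and 7.43, 7.39 and 7.02 in Terc+/+. All 3 Terc+/+ arrays stood above the 6 mutant arrays, while the Terc-/- and Terc+/- arrays overlapped.

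The mean of Osm was 6.27 ± 0.06 for Terc-/-, 6.36 ± 0.15 for Terc+/- and 7.28 ± 0.22 for Terc+/+ (SD, n = 3 each). Terc-/- was thus lower than Terc+/+ by a log2 difference of -1.01 (SE 0.12, 95% interval -1.29 to -0.72), or 2.01-fold lower. For Terc+/- against Terc+/+ the difference was -0.92 (SE 0.12, -1.20 to -0.64), or 1.89-fold lower, with the same Terc+/+ arrays in both comparisons. Between Terc-/- and Terc+/- it was -0.09 (SE 0.12, -0.37 to 0.20), less than the spread between arrays. Leaving out each array in turn gave -1.14 to -0.93 for Terc-/- against Terc+/+ and -1.05 to -0.84 for Terc+/- against Terc+/+. With the feeder score in the model the differences were -1.04 and -0.91.

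Lif encodes leukemia inhibitory factor, which the medium also supplied as protein. Of its 3 probes, probe 5050301 is annotated to another transcript record than the other two. The probes read between 5.36 and 6.10 on all arrays, around the table's median of 5.94. Whether they stood above background was not tested, since detection values were not used here. Probe 3130059 read 5.65, 5.78 and 6.02 in Terc-/-, 5.73, 5.79 and 5.45 in Terc+/- and 6.10, 5.95 and 5.65 in Terc+/+, and all genotypes overlapped.

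The log2 differences of that Lif probe were -0.08 (SE 0.15) in Terc-/- and -0.25 (SE 0.15) in Terc+/-, each against Terc+/+, and 0.16 (SE 0.15) in Terc-/- against Terc+/-. Probe 7210154 gave -0.19 (SE 0.10) in Terc-/- against Terc+/+, where the genotypes did not overlap, with the highest Terc-/- array and the lowest Terc+/+ array both at 5.82 to the printed decimals. Probe 5050301 gave -0.05 (SE 0.08). Over the 9 arrays the probes of Lif followed each other only in part, with Pearson's r of 0.623, 0.391 and 0.582, which is a description of 1 set of arrays.

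Lifr, the receptor chain that binds LIF, also read near the table's median, with 3 probes between 5.73 and 6.38. Probe 5360220 read 6.37, 6.38 and 6.12 in Terc-/-, 6.25, 6.07 and 6.19 in Terc+/- and 6.06, 6.19 and 5.91 in Terc+/+. Its Terc-/- and Terc+/+ arrays overlapped, with 2 Terc-/- arrays above every other array.

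All 3 Lifr probes had their highest mean in Terc-/-, the middle mean in Terc+/- and their lowest in Terc+/+, and neighbours in that order overlapped. The differences in Terc-/- against Terc+/+ were 0.24 (SE 0.10), 0.28 (SE 0.11) and 0.17 (SE 0.09), which are folds of 1.18, 1.22 and 1.12. The Terc-/- arrays lay above the Terc+/+ arrays for probes 1010376 and 670634 without overlap. In Terc+/- against Terc+/+ the differences were 0.12 (SE 0.10), 0.09 (SE 0.11) and 0.09 (SE 0.09), and the arrays overlapped on every probe.

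Il6st encodes gp130, the signalling chain shared by LIF, oncostatin M and interleukin-6. It read 7.40, 7.76 and 7.71 in Terc-/-, 7.62, 7.80 and 7.69 in Terc+/- and 7.59, 7.53 and 7.27 in Terc+/+. The Terc+/- arrays were above the Terc+/+ arrays without overlap, by 0.24 (SE 0.12, 95% interval -0.04 to 0.53), and the Terc-/- arrays overlapped with both other genotypes. Terc-/- differed from Terc+/+ by 0.16 (SE 0.12) and from Terc+/- by -0.08 (SE 0.12).

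Csf2ra encodes the alpha chain that binds GM-CSF, a growth factor of myeloid cells. It read 7.46, 7.63 and 7.32 in Terc-/-, 7.39, 7.94 and 7.58 in Terc+/- and 8.58, 8.30 and 9.16 in Terc+/+. The order was as for Osm: every Terc+/+ array was higher than every mutant array, and the mutant genotypes overlapped.

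Csf2ra averaged 7.47 ± 0.16 for Terc-/-, 7.64 ± 0.28 for Terc+/- and 8.68 ± 0.44 for Terc+/+ (SD, n = 3 each). The log2 difference was -1.21 in Terc-/- against Terc+/+ (SE 0.23, 95% interval -1.73 to -0.68), or 2.31-fold lower. In Terc+/- against Terc+/+ it was -1.04 (SE 0.23, -1.57 to -0.52), or 2.06-fold lower, and in Terc-/- against Terc+/- it was -0.17 (SE 0.23, -0.69 to 0.36). Terc+/+ replicate 3 held the highest value, and without it the differences against Terc+/+ were -0.97 in Terc-/- and -0.80 in Terc+/-. With the feeder score in the model they were -1.07 and -1.08.

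The stretch of 250 bases before the annotated start of Csf2ra is shown because this gene had the largest mean difference among the members. It lies at chr19:61228419-61228668 on the minus strand of GRCm38.p6 (RefSeq), written in the direction of transcription, and the capitals mark TGACGTCA, the core of the cAMP response element, 92 to 85 bases before the start.
Csf2ra upstream: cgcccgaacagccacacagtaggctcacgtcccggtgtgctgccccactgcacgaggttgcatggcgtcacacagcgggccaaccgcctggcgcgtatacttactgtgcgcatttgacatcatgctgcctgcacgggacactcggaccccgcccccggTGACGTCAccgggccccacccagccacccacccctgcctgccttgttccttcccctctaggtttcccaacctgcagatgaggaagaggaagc
That motif reads the same on both strands, was picked after the sequence had been read, and occurs in 1.55% of the 32851 upstream stretches of this length in the table, Jak1 among them. A match in sequence says nothing about whether a factor binds there.

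Osm and Csf2ra are best known from myeloid cells, so markers of those cells are given beside them. The myeloid score, the mean deviation over 11 measured markers, was -0.22 to 0.20 in Terc-/-, -0.27 to 0.08 in Terc+/- and 0.10 to 0.19 in Terc+/+. The summed log2 signal of the 11 markers was 73.3 to 77.9 in Terc-/-, 72.7 to 76.6 in Terc+/- and 76.8 to 77.8 in Terc+/+.

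Of the 11 myeloid markers, 9 had a lower mean in Terc-/- and 8 in Terc+/-, each against Terc+/+, and 0 passed the limma test. Over all probes, 12823 and 12748 of 25697 had a lower mean in these comparisons. Several of the marker differences were smaller than their SE, such as -0.01 (SE 0.06) for Itgam and -0.02 (SE 0.09) for Tyrobp in Terc-/-. The lysozyme genes differed most, Lyz1 by -0.60 (SE 0.56) in Terc-/- and -1.09 (SE 0.56) in Terc+/-, and Lyz2 by -0.41 (SE 0.44) and -0.86 (SE 0.44), with overlapping arrays. Cd14, a co-receptor for bacterial endotoxin, differed by -0.23 (SE 0.11) and -0.31 (SE 0.11), and Spi1, a transcription factor of myeloid cells, by -0.11 (SE 0.12) and -0.34 (SE 0.12). Both were lower in Terc+/- than in Terc+/+ without overlap, as were 5.43% of all probes.

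Aif1 was the marker with higher readings in both mutants without overlap, by 0.17 (SE 0.06) each. Over all probes 6.99% were higher without overlap in Terc-/- and 6.81% in Terc+/-. Laptm5 differed by -0.30 and -0.50 (SE 0.34 each) and Adgre1 by -0.14 and -0.31 (SE 0.16 each). Ptprc, Itgam, Tyrobp and Fcer1g differed by at most 0.11 in either direction against Terc+/+. Of these, Ptprc read 5.47 to 5.69 in Terc-/-, 5.58 to 5.71 in Terc+/- and 5.57 to 5.66 in Terc+/+, Itgam between 5.43 and 5.55 on all arrays and Tyrobp between 5.45 and 5.78, all below the table's median. Above that median by their means over the 9 arrays were Laptm5 (12.24), Lyz1 (9.46), Lyz2 (7.67), Cd14 (6.23) and Spi1 (5.97). The part of myeloid cells in the Osm and Csf2ra differences was not tested.

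Jak1 encodes the kinase that docks on gp130. Its probe read 7.10, 7.21 and 7.51 in Terc-/-, 7.11, 6.83 and 6.92 in Terc+/- and 6.93, 6.84 and 6.79 in Terc+/+. The Terc-/- arrays lay above the Terc+/+ arrays without overlap, and Terc+/- overlapped with both. The difference was 0.42 in Terc-/- against Terc+/+ (SE 0.12, 95% interval 0.15 to 0.70), or 1.34-fold, and 0.32 in Terc-/- against Terc+/- (SE 0.12). Terc+/- against Terc+/+ gave 0.10 (SE 0.12). Terc-/- replicate 3 was highest in Jak1 and in feeder score, and without it the difference in Terc-/- against Terc+/+ was 0.30. With the feeder score in the model the differences against Terc+/+ were 0.37 in Terc-/- and 0.12 in Terc+/-.

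Stat3 encodes the transcription factor that carries the LIF signal to the nucleus. Its brightest probe, 6660176, read 9.81, 10.18 and 10.59 in Terc-/-, 9.99, 9.69 and 9.95 in Terc+/- and 9.90, 10.18 and 8.49 in Terc+/+. Terc+/+ replicate 3 was the lowest array for all 3 Stat3 probes, at 8.49, 8.02 and 6.39, and the remaining Terc+/+ arrays lay among those of the mutants.

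The 3 Stat3 probes followed each other closely over the arrays (Pearson's r 0.987, 0.946 and 0.932, n = 9, a description). Probe 6660176 averaged 10.19 ± 0.39 for Terc-/-, 9.88 ± 0.16 for Terc+/- and 9.52 ± 0.91 for Terc+/+ (SD, n = 3 each), an order whose neighbours overlapped. The differences against Terc+/+ were 0.67 (SE 0.41) in Terc-/- and 0.35 (SE 0.41) in Terc+/-, and without Terc+/+ replicate 3 they were 0.15 and -0.16. With the feeder score in the model they were 0.44 and 0.42. The span of this probe over the 9 arrays was 4.28-fold.

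Socs3 encodes the feedback inhibitor of gp130 and JAK1 and is a direct STAT3 target, so its level is widely used as a readout of LIF signalling. It read 10.60, 10.90 and 10.80 in Terc-/-, 10.42, 11.07 and 10.77 in Terc+/- and 11.27, 10.17 and 11.18 in Terc+/+. The Terc+/+ arrays spanned both the highest and the lowest value of all 9, with the mutants between them.

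Socs3 averaged 10.77 ± 0.15 for Terc-/-, 10.75 ± 0.33 for Terc+/- and 10.87 ± 0.61 for Terc+/+ (SD, n = 3 each). The differences were -0.11 (SE 0.29, 95% interval -0.78 to 0.56) in Terc-/- and -0.12 (SE 0.29, -0.79 to 0.55) in Terc+/-, each against Terc+/+, and 0.01 (SE 0.29) in Terc-/- against Terc+/-. The intervals leave differences of over 0.5 log2 units possible in either direction. Without Terc+/+ replicate 2, the lowest array, the differences against Terc+/+ were -0.46 in Terc-/- and -0.47 in Terc+/-. With the feeder score in the model they were 0.03 and -0.16.

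The 250 bases before the start of a Socs3 transcript are shown because Socs3 is the feedback gene of STAT3. They lie at chr11:117969367-117969616 on the minus strand of GRCm38.p6 (RefSeq), and the capitals mark TTCNNNGAA, the general STAT motif, here TTCTTAGAA, 154 to 146 bases before that start.
Socs3 upstream: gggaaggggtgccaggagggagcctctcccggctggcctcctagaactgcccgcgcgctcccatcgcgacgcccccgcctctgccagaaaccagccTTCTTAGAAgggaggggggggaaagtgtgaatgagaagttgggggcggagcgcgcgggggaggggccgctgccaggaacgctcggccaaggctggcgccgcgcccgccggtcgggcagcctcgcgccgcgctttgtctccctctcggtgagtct
The letters TTCNNNGAA, which read alike on both strands, were found in 7.02% of all upstream stretches of this length and in 1 of the 8 stretches of the members, which covered 7 of the 8 genes. The stricter form TTCCNGGAA, a subset of these letters, was found in 0.913% of all stretches and in 0 of the members' 8. No match says only that the letters are not in this window. A match says nothing about whether STAT3 binds there, and whether the marked letters are a site of the feedback was not tested.

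**Figure D2:**
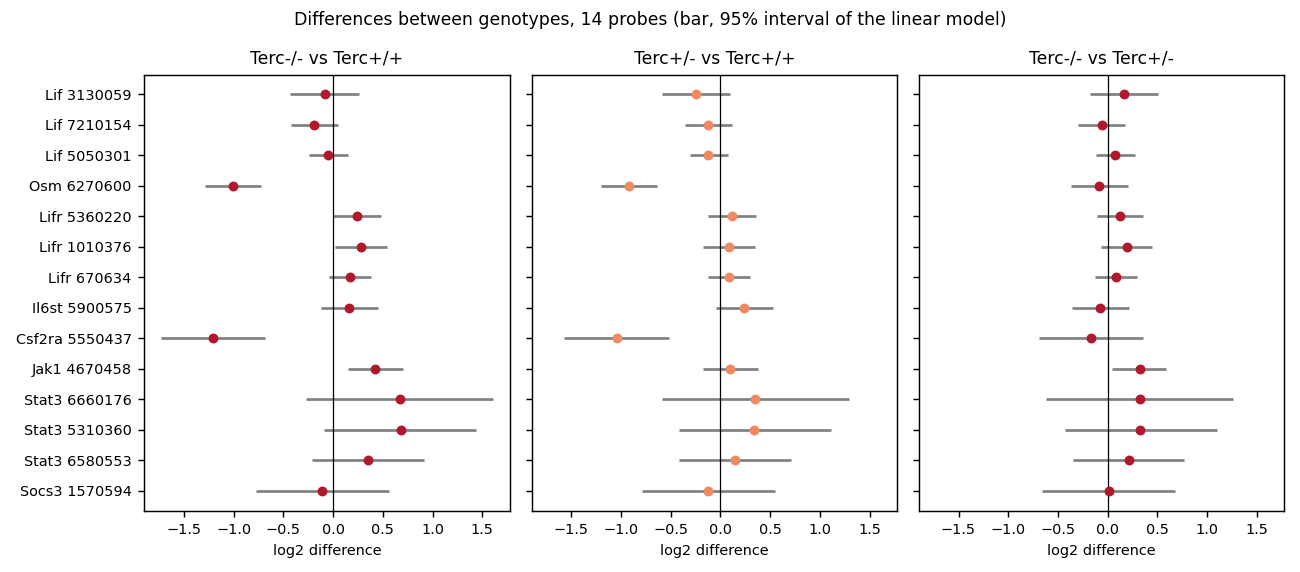
Log2 differences between genotypes (x axis) for the 14 probes (y axis, gene and probe number) in 3 panels, with each mutant set against Terc+/+ and then Terc-/- against Terc+/-. Points are differences of means over 3 arrays each and bars are 95% intervals of the linear model, uncorrected for the choice of genes. Osm (-1.01 and -0.92) and Csf2ra (-1.21 and -1.04) stand apart in the comparisons against Terc+/+, and all probes lie within 0.33 of 0 in the last.

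Counted by overlap, 3 of the 14 probes were higher and 3 were lower without overlap in Terc-/- than in Terc+/+, where 6.99% of all probes were higher and 7.8% lower. The higher ones were Jak1 and both dimmer Lifr probes, and the lower ones were Osm, Csf2ra and Lif probe 7210154. In Terc+/- against Terc+/+ 1 probe, Il6st, was higher and 2, Osm and Csf2ra, were lower, against 6.81% and 5.43% of all probes. In Terc-/- against Terc+/- 0 were higher and 0 lower, against 3.62% and 4.22%. Nothing is read from these counts, for the reason given above.

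Leaving out 1 array at a time kept Osm, Csf2ra, Lifr, Il6st and Jak1, each by its brightest probe, on 1 side of 0 in both comparisons against Terc+/+. Where the arrays of both genotypes do not overlap, leaving out 1 cannot change the sign. This covers Osm and Csf2ra in both comparisons, Jak1 in Terc-/- and Il6st in Terc+/-. Socs3 changed sign in both comparisons, Stat3 in Terc+/- against Terc+/+ and Lif in Terc-/- against Terc+/+.

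**Figure D3:**
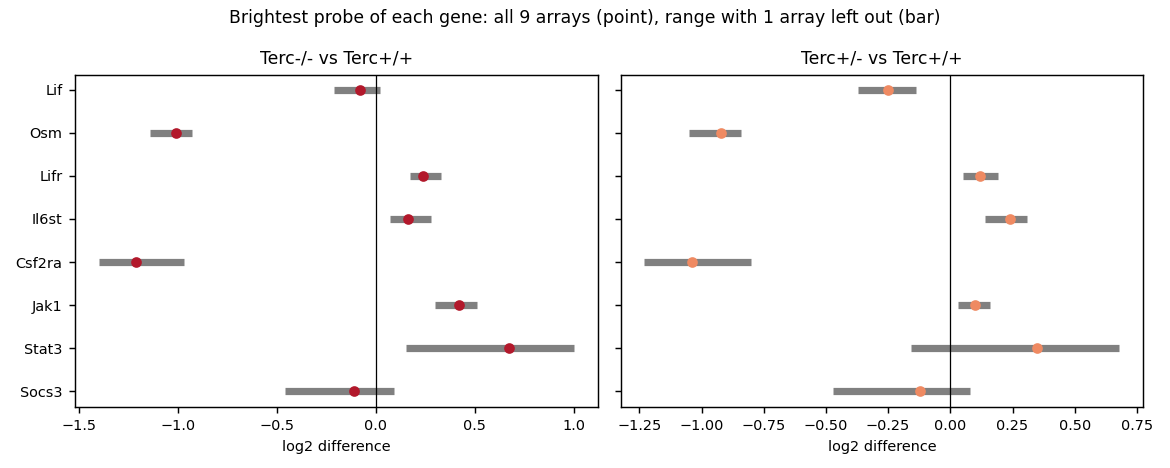
Log2 difference (x axis) of the brightest probe of each gene (y axis) in both mutant genotypes against Terc+/+. Points use all 9 arrays and bars span the values with any 1 array left out. The Osm bar runs from -1.14 to -0.93 in Terc-/-, and the Stat3 bar from 0.15 to 1.00.

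Fibroblasts also express genes of the gp130 pathway, and each gene's brightest probe was set against the feeder score over the 9 arrays, 8 relations in all. The genes were chosen from values of these same arrays, and the p-values below are not corrected for that choice. Unless stated otherwise, the permutations exchanged arrays between genotypes as well as within them. Stat3 rose with the score (Pearson's r = 0.779, two-sided exact permutation p = 0.00179, adjusted 0.0143; Spearman's rho = 0.850, exact permutation p = 0.00607, adjusted 0.0486). Leaving out the 2 arrays with scores farthest from the median, Terc+/+ replicate 3 and Terc-/- replicate 3, gave r = 0.631 (exact permutation p = 0.13, adjusted 0.521) over 7 arrays, which did not pass. Around the genotype means r was 0.809 (exact permutation within genotypes p = 0.0185, adjusted 0.123).

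The other genes did not pass after adjustment. For Socs3 r was -0.639 (rho -0.467; exact permutation p = 0.0662 and 0.213, adjusted 0.167 and 0.34), and for Jak1 it was 0.617 (rho 0.683; exact permutation p = 0.0713 and 0.0503, adjusted 0.167 and 0.157). For Lif r was 0.610 (rho 0.667; exact permutation p = 0.0835 and 0.0589, adjusted 0.167 and 0.157). Csf2ra gave r = -0.476 (rho -0.483; exact permutation p = 0.195 and 0.194, adjusted 0.312 and 0.34) and Lifr r = 0.376 (rho 0.400; exact permutation p = 0.318 and 0.291, adjusted 0.425 and 0.388).

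Il6st gave r = 0.278 (rho 0.217; exact permutation p = 0.469 and 0.581, adjusted 0.536 and 0.664), and Osm r = 0.006 (rho -0.033; exact permutation p = 0.988 and 0.948, adjusted 0.988 and 0.948). Without the same 2 arrays r was -0.68 for Socs3, 0.191 for Jak1, 0.473 for Lif, 0.128 for Csf2ra, 0.21 for Lifr, -0.388 for Il6st and 0.456 for Osm. Around the genotype means Csf2ra tended to be lower at a higher score (r = -0.86, exact permutation within genotypes p = 0.037, adjusted 0.123), which did not pass. Jak1 tended to be higher (r = 0.707, exact permutation within genotypes p = 0.0463, adjusted 0.123), which did not pass either. In this setting r was 0.679 for Lif, -0.669 for Socs3, 0.468 for Osm, 0.372 for Il6st and 0.31 for Lifr, and none passed.

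**Figure D4:**
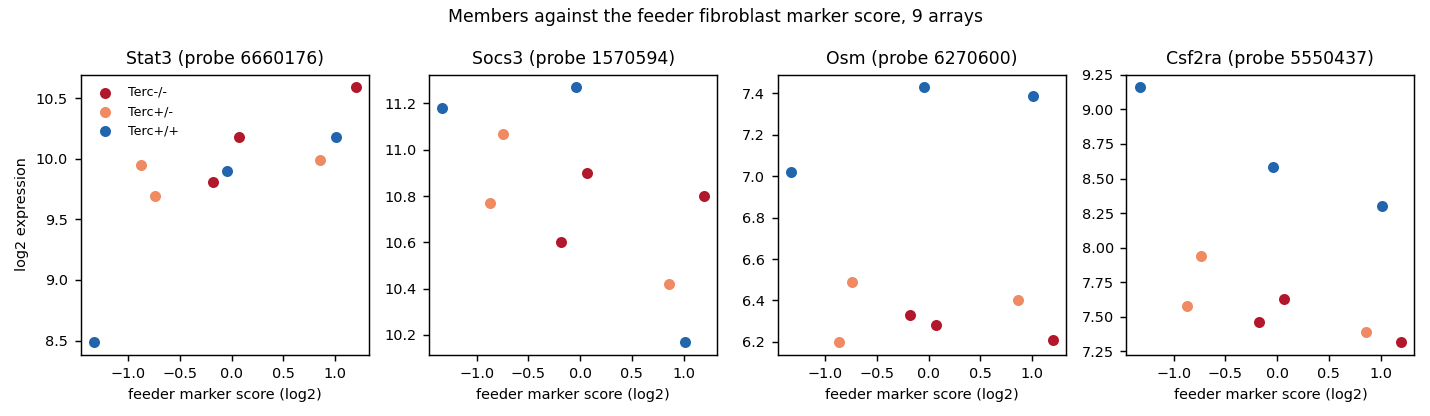
Log2 expression (y axis) of Stat3, Socs3, Osm and Csf2ra against the feeder fibroblast marker score (x axis, log2 units), 1 point per array, coloured by genotype. The lowest Stat3 value (8.49) is on the array with the lowest score (-1.33). The Osm values of Terc+/+ (7.02 to 7.43) lie above those of both mutants. Scores run from -1.33 to 1.01 in Terc+/+, -0.18 to 1.20 in Terc-/- and -0.87 to 0.86 in Terc+/-.

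Among all other named probes, those whose pattern over the 9 arrays was most like each member's were listed by Pearson's r, 3 per member. The highest of so many correlations are high by selection and are a description. Nearest to Osm were Fads6 (0.975), Hpcal1 (0.974) and Plek (0.969), and nearest to Csf2ra were Hs6st1 (0.992), Ddx41 (0.989) and Peli2 (0.978). Nearest to Stat3 were Rab22a (0.987 and, by another probe, 0.970) and Pmm2 (0.976).

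Socs3 was followed most closely by Plk3 (0.965), Cntf (0.930) and Tfap2c (0.917), of which Cntf is itself a gp130 ligand gene. For Jak1 these were Gvin1 (0.971), Snapc3 (0.951) and Mbnl1 (0.949), and for Il6st Otud7b (0.956), Abitram (0.947) and Sgtb (0.946). For Lif they were Jup (0.954), Dnase1l2 (0.929) and Acadl (0.923), and for Lifr Fgf11 (0.951), Svs5 (0.938) and Slc35b1 (0.920).

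The wider pathway was read from a list of 92 further genes in 9 groups, of which 80 had a probe. The other 12 were not analysed here. In limma, 0 of the 80 passed an adjusted p of 0.05 in any comparison. At an unadjusted p under 0.05 there were 7 in Terc-/- against Terc+/+ (2 higher and 5 lower), 7 in Terc+/- against Terc+/+ (1 higher and 6 lower) and 0 in Terc-/- against Terc+/-. These are 8.75%, 8.75% and 0% of the list, close to the 10.3%, 8.34% and 1.81% of all probes given above.

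The genes listed as STAT3 or LIF targets, Fos, Egr1 and Icam1 among them, leaned towards lower means in the mutants. Of 21 measured targets 18 had a lower mean in Terc-/- and 17 in Terc+/-, each against Terc+/+, with medians of -0.19 and -0.20, while over all probes 12823 and 12748 of 25697 were lower and the medians were 0.00026 and 0.0011. This is a count of means, in which 0 of 21 passed the test in either comparison, and both comparisons share the Terc+/+ arrays. The list was drawn up with earlier results of these data known, so the lean is a description. In Terc-/- against Terc+/- 12 of 21 were lower, with a median of -0.044.

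Gbx2, a homeobox gene that LIF induces, had differences of the opposite sign. It read 11.77, 11.54 and 11.21 in Terc-/-, 12.30, 11.17 and 11.86 in Terc+/- and 10.63, 10.45 and 10.25 in Terc+/+, and both mutants stood above Terc+/+ without overlap. The differences were 1.06 (SE 0.27, limma adjusted p = 0.218) in Terc-/- and 1.34 (SE 0.27, limma adjusted p = 0.222) in Terc+/-, and neither passed.

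Klf4, a pluripotency factor that STAT3 induces, read 10.01, 10.59 and 10.52 in Terc-/-, 10.56, 10.64 and 10.27 in Terc+/- and 11.82, 10.96 and 10.60 in Terc+/+. Its differences against Terc+/+ were -0.75 (SE 0.30, limma adjusted p = 0.435) in Terc-/- and -0.63 (SE 0.30, limma adjusted p = 0.639) in Terc+/-, with Terc+/+ replicate 1 as the highest array. Klf5, a related factor, gave -0.30 (SE 0.14) and -0.35 (SE 0.14). Bcl3 and Esrrb, named after their values were seen, gave -0.40 (SE 0.12) and -0.47 (SE 0.15) in Terc-/- against Terc+/+, and like Klf4 they did not overlap there.

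The kinase gene Pim1 gave -0.19 (SE 0.19) in Terc-/- and -0.08 (SE 0.19) in Terc+/-, and Myc gave -0.23 (SE 0.13) and -0.13 (SE 0.13). Junb, an AP-1 gene, gave -0.25 (SE 0.27) and -0.64 (SE 0.27), and in Terc+/- it had an unadjusted p of 0.0465 (limma, adjusted p = 0.59). Pim2 had the smallest p of the targets in Terc-/- against Terc+/- (-0.36, SE 0.22, limma adjusted p = 1.00).

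**Figure D5:**
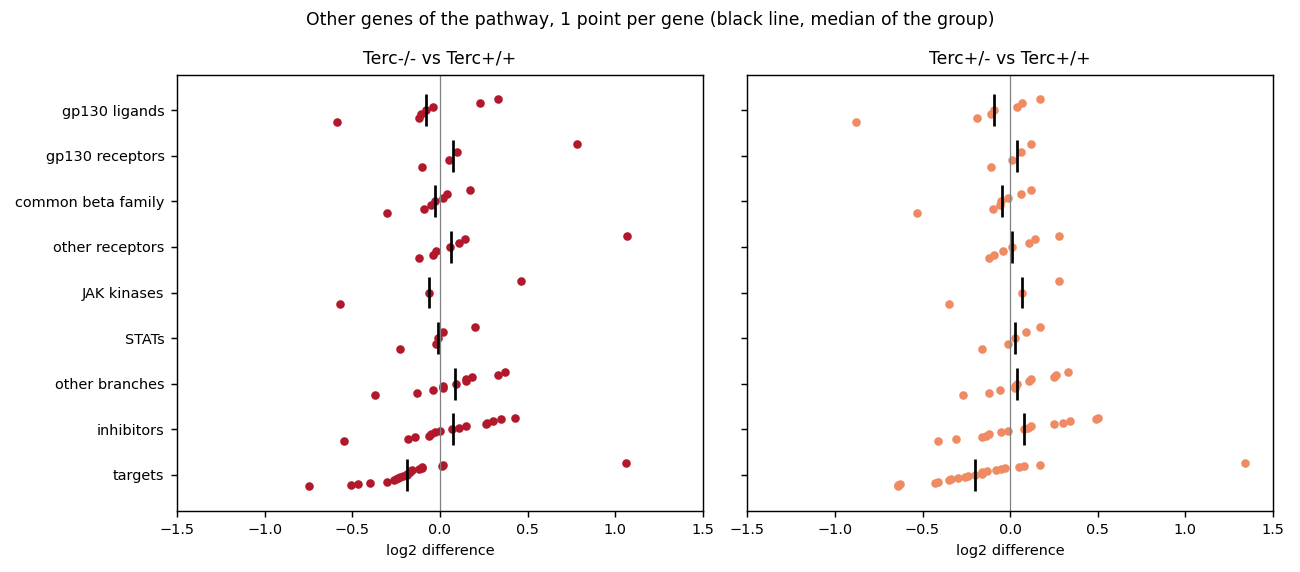
Log2 differences (x axis) of the 80 other pathway genes by group (y axis) in both mutant genotypes against Terc+/+, 1 point per gene and a black line at each group's median. The targets have the lowest medians (-0.19 and -0.20), with Gbx2 as the highest point of that group (1.06 and 1.34), and no gene passed the test.

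Other gp130 cytokines and their receptors gave no call. Il6, the founding member of the cytokine family, differed by 0.33 (SE 0.19) in Terc-/- against Terc+/+, and Clcf1 by -0.19 (SE 0.10) in Terc+/- against Terc+/+. Osmr, the oncostatin M receptor chain, read 7.00, 7.52 and 8.62 in Terc-/-, 8.01, 6.59 and 6.39 in Terc+/- and 7.01, 7.75 and 6.05 in Terc+/+. Within each genotype its highest array was also the one with the highest feeder score, and its difference was 0.78 (SE 0.60) in Terc-/- against Terc+/+. Il6ra, the interleukin-6 receptor chain, gave -0.10 and -0.11 (SE 0.12 each) in Terc-/- and Terc+/-.

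In the common beta family to which Csf2ra belongs, 0 of 7 measured genes passed. Csf2rb, the shared signalling chain, read between 5.63 and 5.90, near the table's median, and differed by 0.17 (SE 0.07) in Terc-/- against Terc+/+, opposite in sign to Csf2ra. Il3ra, the alpha chain of the interleukin-3 receptor, differed by -0.30 (SE 0.21) in Terc-/- and by -0.53 (SE 0.21) in Terc+/-. Csf2, the gene for GM-CSF, gave -0.09 (SE 0.09) and -0.05 (SE 0.09). Of the other class I receptors Ghr, the growth hormone receptor, gave 1.07 (SE 0.56) in Terc-/- against Terc+/+. Its highest array within each genotype, at 9.44 in Terc-/-, 8.95 in Terc+/- and 8.22 in Terc+/+, was also the one with the highest feeder score. Il15ra gave -0.12 (SE 0.06) in Terc+/- against Terc+/+.

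Kinases, STATs and adaptors likewise gave 0 calls. Jak2 differed by 0.46 (SE 0.30) and 0.28 (SE 0.30), and Jak3, which pairs with other receptors, by -0.57 (SE 0.25) and -0.35 (SE 0.25), in Terc-/- and Terc+/- against Terc+/+. Stat4 gave 0.20 and 0.17 (SE 0.11 each), and Tyk2 and Stat6 gave -0.13 (SE 0.12) and -0.07 (SE 0.13) in Terc-/- against Terc+/-. Ptpn11, the phosphatase SHP2 that links gp130 to the MAPK branch, gave 0.15 and 0.25 (SE 0.13 each).

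Sos1, an exchange factor that activates Ras in that branch, had the smallest p of the list in Terc-/- against Terc+/+. It read 5.74, 5.83 and 5.75 in Terc-/-, 5.89, 5.84 and 5.88 in Terc+/- and 6.26, 5.97 and 6.19 in Terc+/+, with no overlap between any genotypes, at levels around the table's median. The differences were -0.37 (SE 0.08, limma adjusted p = 0.167) in Terc-/- and -0.27 (SE 0.08, limma adjusted p = 0.388) in Terc+/-, neither past the threshold. Akt1 gave -0.16 (SE 0.09) in Terc-/- against Terc+/-.

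Among 15 measured inhibitors of the pathway other than Socs3, 8 had higher and 7 lower means in both comparisons against Terc+/+, and 0 passed. Socs2, another SOCS protein gene, gave 0.43 (SE 0.21) in Terc-/- and 0.30 (SE 0.21) in Terc+/-. Pias2, an inhibitor of STAT binding to DNA, gave 0.50 (SE 0.22) in Terc+/- against Terc+/+, and Socs4 gave -0.17 (SE 0.15) in Terc-/- against Terc+/-.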

How the data were processed

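For 9 arrays of ntESC RNA, the authors deposited 1 log2 value per probe and array; the log base was read from the range of the values. How they were normalized is not given in the sources used here. All 9 columns share their quartiles (5.57 and 7.73) to the printed decimals. A deposited table of raw signals has 18 columns named by chip and position, which match no label and were not used.

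Symbols came from the platform annotation (23141 probes with 1 symbol, 2556 with none, 0 with several), and all 23141 matched RefSeq GRCm38.p6 by gene identifier. The 3 genotypes were fitted in 1 linear model over all 25697 probes with limma 3.58.1 in R 4.3.3 (6 residual degrees of freedom, Benjamini-Hochberg within a comparison, threshold 0.05, two-sided, median SE 0.109). The number of arrays limits the precision. Fits were tested on simulated data. Exact permutation tests used NumPy 2.4.6. A gene with several probes is represented in the pathway list and scores by its probe with the highest mean.

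The members and all lists were chosen with earlier results of these data known. Named were every member probe, the gene with the smallest p per group and comparison, and a fixed set of pathway genes; 3 genes per member were named by likeness. Replicate numbers did not pair the arrays: of 9 same-numbered pairs 2 had deviations correlating over 0.1 (-0.597 to 0.452). Alternatives are in the closing section.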

Additional observations from a re-analysis of the deposited data

How the results depend on the processing

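The count of called probes in Terc-/- against Terc+/+ was 10 with limma as described and 10 with 1 probe per gene. It was 0 with cyclic loess, with only probes of a mean above 6, with trend and robust variance and with only the arrays of both genotypes. It was 169 with the feeder score as a covariate and 3845 with array quality weights, which gave Terc+/+ replicate 1 a weight of 6.74 and Terc+/+ replicate 3 one of 0.212. Leaving out single arrays gave 0 to 367, where leaving out Terc+/+ replicate 3 gave 367, leaving out Terc+/- replicate 1 gave 4, and any other gave 0. In Terc+/- against Terc+/+ the count was 0, but 231 with the feeder score, 751 with array weights and 0 to 28 with 1 array left out (28 without Terc+/+ replicate 3). Terc-/- against Terc+/- gave 0 under all alternatives run. With the replicate number as a block the count was 0 in all 3 comparisons, but the numbers share no origin that the labels state.

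Called pathway genes were 0 except with array weights (13 in Terc-/- and 6 in Terc+/-, each against Terc+/+, Gbx2 higher and Klf4, Klf5, Esrrb, Bcl3 and Sos1 lower in both) and with the feeder score (1, Pias4, lower in Terc+/- against Terc+/+). The cause was not tested. Over 681 recomputed member differences, 0 moved by more than the spread between replicates. With 3 arrays per genotype, leaving out 1 cannot move a difference by more than that spread. Several other settings, such as the replicate block, return the same differences by construction. The count of 0 therefore says little about stability, and Stat3 probe 6660176 ran from 0.15 to 1.00 in Terc-/- against Terc+/+. The Stat3 relation to the feeder score was r = 0.800 with cyclic loess, and no longer passed at 0.631 without the 2 farthest arrays or at 0.809 around the genotype means. Settings that need raw signals, detection values or the chip were not run.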
